A study of Mus musculus with 2 samples.

Results

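Gata4, Gata6, Zfpm1 and Zfpm2 were described by the open chromatin around them in the aged mouse ovary. The members were these 4 genes, and their windows were the annotated gene bodies of GENCODE M21 with 50 kb either side. DNase-seq, in which DNase I cuts accessible DNA and the cut ends are sequenced, was made from ovary tissue of female B6CASTF1/J mice. These are first-generation hybrids of C57BL/6 and CAST, and their age was 18 to 20 months. There was 1 group of 2 libraries, which the labels call biological replicates. The labels give each its own biosample but 1 common donor, and do not say whether that means 1 animal, so each SD measures only the spread between these libraries. There was no younger ovary and no other tissue, so no contrast was tested and no p-value is given. The windows of the 4 genes held 88 of the 112418 open regions of the genome, where a region is a peak of either library, or overlapping peaks of both merged.

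GATA factors are zinc finger proteins that bind DNA words built on the letters GATA. GATA4 and GATA6 act in granulosa and theca cells, the somatic cells of the follicle, and in heart and gut. FOG1, encoded by Zfpm1, and FOG2, encoded by Zfpm2, do not read GATA sites themselves but dock onto the amino-terminal zinc finger of GATA factors and recruit the CtBP and NuRD corepressors. FOG1 is best known from red blood cell and megakaryocyte development, where it partners GATA1, and FOG2 from heart and early gonad, where it partners GATA4.

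All 4 genes had a peak within 500 bp of an annotated transcription start in both libraries, as did 62.3% of the 21755 protein-coding genes. Their levels spanned most of the range of open genes. Peak signal is the authors' depth-scaled cut signal, and the median of the strongest promoter peak was 4.03 over the 13545 genes open in both libraries, with quartiles of 1.91 and 7.30. Zfpm1 was the highest of the 4, at 12.6 and 16.5 in replicates 1 and 2, which is 14.5 ± 2.74 (SD, n = 2), and 3.06% of open genes were higher. Gata4 followed with 6.44 and 8.38, a mean of 7.41 ± 1.37 (SD, n = 2), with 24.4% of open genes higher. Gata6 had 2.71 and 3.99, a mean of 3.35 ± 0.900 (SD, n = 2), which lay below the median, with 57.2% of open genes higher. Zfpm2 had 1.22 and 1.49, a mean of 1.35 ± 0.195 (SD, n = 2), with 83.0% of open genes higher. The order Zfpm1, Gata4, Gata6, Zfpm2 was the same in both libraries, and the values of neighbours in that order did not overlap. Replicate 2 was the higher library at each of the 4 starts. Over the genome it was higher at 11160 of the 19391 regions at protein-coding starts with a peak in both libraries. In a tissue sample, fewer cells with an open site and less opening in each cell cannot be told apart.

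**Figure D1:**
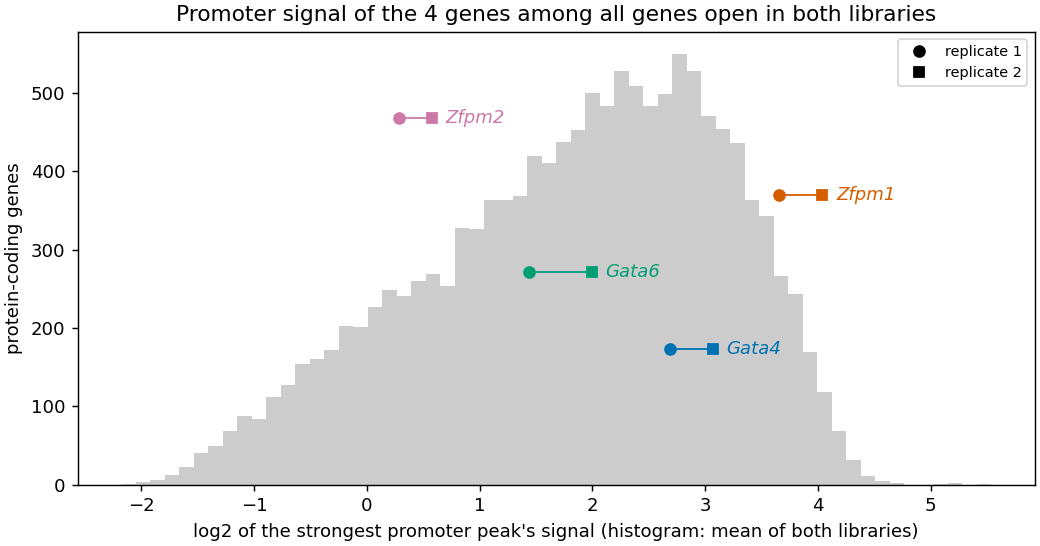
Signal of the strongest promoter peak of each of the 4 genes in replicate 1 (circles) and replicate 2 (squares), on a log2 axis, over a histogram of the mean of both libraries for the 13545 protein-coding genes open in both; the height of the coloured points has no meaning. Zfpm1 lies in the upper tail, Gata4 above the median, Gata6 just below it and Zfpm2 in the lower tail.

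Of the 88 regions in the windows, 53 (60.2%) had a peak in both libraries and are called shared, against 57.7% of the genome's regions, so the share was close to the background. Of the other 35 regions, 20 were in replicate 1 only and 15 in replicate 2 only. They were weak, from 0.355 to 1.47 with a median of 0.657, near the 0.668 of the shared regions of Zfpm2. In the shorter, stricter peak list of their own library were 4 of those in replicate 1 and 3 of those in replicate 2. Of the 35, 5 held a base that passed a false discovery rate of 0.05 for the rate of cuts in the other library. All 420 bp passed in the one just upstream of Zfpm2, and 411 of 420 bp in one at the Zc3h18 start. Among the shared regions, 31 were also in the shorter, stricter peak lists of both libraries. The windows differed in how densely they were open. The Zfpm1 window held 9.03 shared regions per 100 kb and that of Gata4 held 8.10, and 17.3% and 22.1% of protein-coding genes had denser windows. The Gata6 window held 2.99 and that of Zfpm2 held 3.82 per 100 kb, below the median of 4.48 over all genes.

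**Figure D2:**
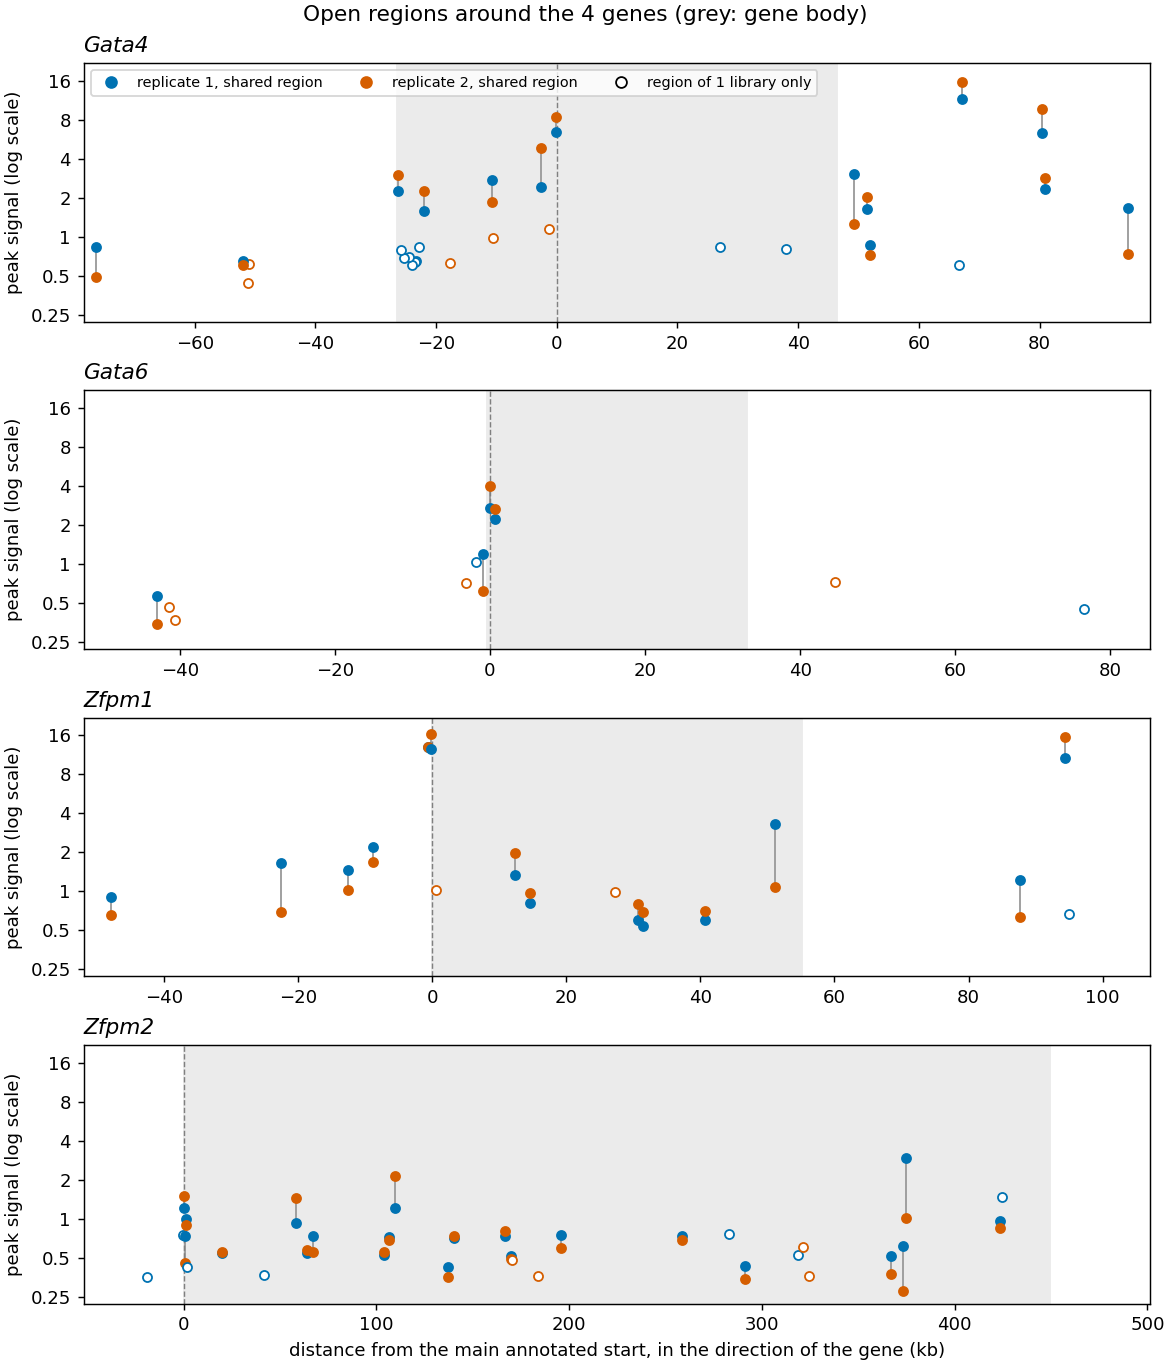
Peak signal on a log scale against distance from the main annotated start in the direction of the gene, in kb, for each window. Filled points joined by a line are the 2 libraries of a shared region (blue replicate 1, orange replicate 2), open points are regions of 1 library, and grey marks the gene body. The Gata4 body is open upstream of the main start, Gata6 almost only at its start, and Zfpm2 has many weak regions along the gene.

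Gata4 lies on the minus strand at chr14:63198922-63271692 (mm10), 72.8 kb long, and its window held 25 and 19 peaks, which made 29 regions, 14 of them shared. The strongest peak of Gata4 was not at the annotated 5′ end but at the start of transcript Gata4-201 at position 63245271, 26.4 kb further into the gene. At the annotated 5′ end, position 63271692, the peak had 2.27 and 3.01 in the 2 libraries, averaging 2.64 ± 0.522 (SD, n = 2). Gata4-203, which starts inside the gene at position 63213607, had no peak at its start in either library. Of the 14 shared regions, 5 lay in the Gata4 body, and all 5 were at or upstream of the Gata4-201 start, inside the span of the longer transcripts. The 6 introns of Gata4-201 held no shared region, although intron 2 alone is 35.8 kb, and its 2 regions of replicate 1 only had 0.807 and 0.829. The shared regions of the body thus lay on 1 side of the main start.

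Outside promoters, 2 regions of the Gata4 window are described. An intronic region of the longer transcripts, 10.8 kb upstream of the main start, had 2.76 and 1.85, a mean of 2.30 ± 0.639 (SD, n = 2). The other, 49.3 kb downstream of the start and beyond the end of the gene, had 3.06 and 1.25, a log2 ratio of replicate 2 over replicate 1 of -1.29.

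The main start and the upstream region are shown in the direction of the gene from the C57BL/6J reference of build mm10, because the Gata4 openness lies there; CAST alleles are not shown. At the start only bases upstream of the first exon are printed. Capitals mark bases inside a footprint, a short stretch protected from cutting, in both libraries, except in the last sequence, where they mark GATA words.
Gata4 start, chr14:63245272-63245571, minus strand: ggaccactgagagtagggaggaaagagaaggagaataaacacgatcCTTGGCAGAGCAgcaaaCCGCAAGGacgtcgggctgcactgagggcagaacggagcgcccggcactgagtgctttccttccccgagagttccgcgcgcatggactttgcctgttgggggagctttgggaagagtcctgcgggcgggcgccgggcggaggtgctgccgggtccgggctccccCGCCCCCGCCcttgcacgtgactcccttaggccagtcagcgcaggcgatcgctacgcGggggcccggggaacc
Gata4 10.8 kb upstream, chr14:63255981-63256200, minus strand: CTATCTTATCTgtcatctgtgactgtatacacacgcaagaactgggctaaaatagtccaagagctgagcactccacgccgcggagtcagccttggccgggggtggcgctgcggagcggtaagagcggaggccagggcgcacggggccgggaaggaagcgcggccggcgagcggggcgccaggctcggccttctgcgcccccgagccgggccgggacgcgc

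At the Gata4 start, a pair of adjoining GC boxes (GGGCGG or its complement, the word bound by Sp1 and related factors) had their centres in footprints of both libraries, with the nearer at -65.5 bp from the start. The main start region had 4 footprints in replicate 1 and 7 in replicate 2, and all 4 of replicate 1 overlapped one of replicate 2. The region 10.8 kb upstream held 2 overlapping GATA words at its edge, and neither lay in a footprint.

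Near the 5′ end of Gata4, 7 regions of replicate 1 alone were spread over 3.05 kb. Their signals were low, from 0.603 to 0.840 with a median of 0.689. None was in the shorter list of replicate 1, and no base in them had a false discovery rate under 0.05 in replicate 2. These 7 made up most of the 10 regions that only replicate 1 had in the Gata4 window.

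The strongest peak of the Gata4 window belonged to a neighbour. The start of Fdft1, which encodes squalene synthase of the cholesterol pathway, had 11.6 and 15.9, a mean of 13.7 ± 3.0 (SD, n = 2). Neil2, which encodes a DNA repair glycosylase, had 1.64 and 2.02, a mean of 1.83 ± 0.274 (SD, n = 2). Starts of these neighbours account for 5 of the 14 shared regions counted for Gata4.

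Gata6 lies on the plus strand at chr18:11052064-11085635, 33.6 kb long, and its window held 7 and 8 peaks. They made 10 regions, of which 4 were shared, and 3 of these 4 lay within 1 kb of the start of Gata6-201. The start peak had 2.71 and 3.99. It is a start shared by genes in opposite directions, since the long RNA gene 1010001N08Rik begins under the same peak on the other strand, so the signal cannot be assigned to either gene. A region 0.61 kb into the gene, in intron 1 of Gata6-201, had 2.25 and 2.68, a mean of 2.47 ± 0.305 (SD, n = 2). That region also holds the annotated start of the protein-coding transcript Gata6-206. A region 0.88 kb upstream had 1.21 in replicate 1 and 0.625 in replicate 2.

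Further into Gata6 no peak was listed: introns 2 to 6 held no region of either library, and intron 6 alone is 19.5 kb. The only shared region away from the start, 43 kb upstream in an intron of 1010001N08Rik, had 0.571 and 0.344. The 3 start regions were wide, from 460 to 520 bp, against a median of 240 bp for all shared regions at protein-coding starts. Of the footprints in the 4 shared regions, 7 of 18 in replicate 1 overlapped one of replicate 2, and 7 of 16 the other way, a mean of 41.3%, against 54.5% over all shared regions. Gata6 thus had the lowest footprint agreement of the 4 genes, over few footprints.

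Zfpm1 lies on the plus strand at chr8:122282141-122337251, 55.1 kb long, and 14 of its 17 regions were shared. The window lies inside the span of Gm20388, a much longer annotated gene, which was not used to place regions. Its start was a pair of strong regions. The one next to the start of Zfpm1-201 had 12.6 and 16.5, and the second, 0.66 kb upstream, had 13.1 in both libraries (13.07 and 13.10). Each exceeded all other regions of the windows in replicate 1, and the start region also exceeded all others in replicate 2.

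The pair is shown on the plus strand because its footprints repeat the same word. Capitals mark bases inside footprints of both libraries, and the upstream region is printed without its last 20 bp.
Zfpm1 0.66 kb upstream, chr8:122281321-122281620: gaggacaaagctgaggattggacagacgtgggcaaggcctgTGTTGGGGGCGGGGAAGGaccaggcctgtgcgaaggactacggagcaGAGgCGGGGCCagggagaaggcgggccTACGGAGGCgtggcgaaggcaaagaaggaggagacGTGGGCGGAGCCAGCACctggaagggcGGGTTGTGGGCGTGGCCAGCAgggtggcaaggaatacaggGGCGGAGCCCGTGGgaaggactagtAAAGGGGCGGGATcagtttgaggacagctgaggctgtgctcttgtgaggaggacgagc
Zfpm1 start, chr8:122281821-122282100: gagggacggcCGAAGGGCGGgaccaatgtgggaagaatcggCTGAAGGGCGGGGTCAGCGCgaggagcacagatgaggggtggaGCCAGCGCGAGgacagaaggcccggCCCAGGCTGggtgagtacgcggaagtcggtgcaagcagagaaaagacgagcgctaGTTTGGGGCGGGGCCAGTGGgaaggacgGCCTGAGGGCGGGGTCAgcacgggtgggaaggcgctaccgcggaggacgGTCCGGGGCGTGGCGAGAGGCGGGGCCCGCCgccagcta

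The pair held 9 GC boxes, all written GGGCGG on the strand of the gene, and 8 of the 9 had their centre in footprints of both libraries. Over all shared regions at protein-coding starts, 31.8% of GC boxes did. The upstream region, with 5 of the 9, counts as away from starts, and there 18.7% did. Both backgrounds pool regions of every strength. At most 1.65% of shared regions were stronger than either region of the pair in either library. The protected stretches were similar to each other, such as CTGAAGGGCGGGGTCAGCGC, GTTTGGGGCGGGGCCAGTGG and GCCTGAGGGCGGGGTCA in the start region. The pair had 15 footprints in replicate 1 and 16 in replicate 2. All 15 of replicate 1 overlapped one of replicate 2, and 14 of the 16 did so the other way. Over the whole window, 29 of 37 footprints of replicate 1 and 30 of 42 of replicate 2 overlapped one of the other library. The mean was 74.9%, the highest of the 4 windows. Most of these overlapping footprints lay in the start pair and at the start of the neighbour Zc3h18. At the Zc3h18 start, 5 of 6 footprints of replicate 1 and 5 of 5 of replicate 2 overlapped.

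Inside Zfpm1, shared regions lay in introns 1, 3 and 5. The strongest in intron 1, 12.3 kb downstream of the start, had 1.35 and 1.97, a mean of 1.66 ± 0.441 (SD, n = 2). It held 1 GATA word, which lay in a footprint of replicate 2 only. A region in intron 5, within 500 bp of the starts of the non-coding transcripts Zfpm1-204 and Zfpm1-202, had 3.29 in replicate 1 and 1.09 in replicate 2, a log2 ratio of -1.60. This was the most negative ratio among the 53 shared regions. Intron 3 held 3 weak shared regions of 0.617 to 0.704 in mean signal.

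Upstream, the strongest region other than the start pair lay 8.8 kb from the start and had 2.22 and 1.68, a mean of 1.95 ± 0.380 (SD, n = 2). Its 1 protected stretch common to both libraries held a match to the core word of CTCF, the factor that marks insulators and chromatin loop anchors. Zfp469, annotated as a long non-coding RNA gene in this release, had 1.47 and 1.03 at its start, which also held a CTCF core word in footprints of both libraries. Zc3h18, which encodes an RNA-binding adaptor of nuclear RNA decay, had 10.7 and 15.5 at its start, a mean of 13.1 ± 3.46 (SD, n = 2). Trhr2, a receptor gene whose start is also in the window, had no promoter peak in either library.

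Zfpm2 lies on the plus strand at chr15:40655035-41104592 and is 450 kb long. Its window held 30 and 26 peaks in 32 regions, of which 21 were shared. At the start, 3 shared regions lay side by side, from just upstream of the start to the beginning of intron 1. They were wide, with a median of 520 bp, and low: 1.22 and 1.49 at the start, 0.732 and 0.453 at 0.5 kb, and 0.990 and 0.899 at 1.07 kb. Just upstream of them lay a region of replicate 1 only, with 0.743. All its 420 bp passed a false discovery rate of 0.05 in replicate 2, although no peak was listed there. The other 18 shared regions were all intronic, with means from 0.386 to 1.97 and a median of 0.656. Introns 1, 2, 3, 4 and 5 held 5, 3, 5, 2 and 4 shared regions, counting the region at 1.07 kb, and intron 2 was the densest with 14.3 per 100 kb.

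In Zfpm2, some intronic regions had a higher mean than the start. A region in intron 2, 109 kb downstream, had 1.22 and 2.13, averaging 1.67 ± 0.643 (SD, n = 2). A region in intron 5, 375 kb downstream, had 2.92 and 1.02, a mean of 1.97 ± 1.34 (SD, n = 2). Both means were above the 1.35 of the start, but neither was higher in both libraries: the first equalled the start in replicate 1 and the second was below it in replicate 2. The third of the strongest, in intron 1 at 58.1 kb, had 0.926 and 1.44, a mean of 1.18 ± 0.362 (SD, n = 2).

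These 3 intronic regions and the CTCF-core region upstream of Zfpm1 are shown on the plus strand. Capitals mark bases inside footprints of both libraries, except in the last sequence, whose footprints did not overlap between the libraries and where capitals mark GATA words.
Zfpm1 8.8 kb upstream, chr8:122273241-122273440: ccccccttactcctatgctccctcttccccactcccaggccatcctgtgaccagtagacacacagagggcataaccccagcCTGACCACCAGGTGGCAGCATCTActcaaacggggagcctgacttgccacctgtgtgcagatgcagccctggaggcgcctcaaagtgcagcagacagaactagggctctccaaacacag
Zfpm2 intron 5, chr15:41029821-41030000: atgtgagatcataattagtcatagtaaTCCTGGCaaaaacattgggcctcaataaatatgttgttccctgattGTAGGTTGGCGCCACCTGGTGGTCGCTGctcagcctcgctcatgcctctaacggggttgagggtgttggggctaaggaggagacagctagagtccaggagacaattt
Zfpm2 intron 1, chr15:40713001-40713220: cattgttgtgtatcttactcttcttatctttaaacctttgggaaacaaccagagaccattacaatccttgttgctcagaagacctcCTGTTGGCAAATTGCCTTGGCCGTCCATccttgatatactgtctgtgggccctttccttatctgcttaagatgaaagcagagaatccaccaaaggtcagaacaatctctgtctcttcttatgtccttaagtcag
Zfpm2 intron 2, chr15:40764381-40764600: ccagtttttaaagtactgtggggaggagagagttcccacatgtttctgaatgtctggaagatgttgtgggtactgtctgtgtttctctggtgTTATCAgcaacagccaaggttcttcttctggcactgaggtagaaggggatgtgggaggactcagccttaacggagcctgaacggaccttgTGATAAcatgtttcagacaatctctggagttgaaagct

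The intron 5 region of Zfpm2 and the region upstream of Zfpm1 hold the same letters on opposite strands inside their footprints, GCCACCT in the first and AGGTGGC in the second, a CTCF core word. The footprint of the intron 1 region, CTGTTGGCAAATTGCCTTGGCCGTCCAT, was 28 bp long in both libraries and matched none of the 9 sets. The 2 GATA words of the intron 2 region lay outside footprints. An NR5A word (CAAGGCCA, bound by the steroidogenic factors of the NR5A family) lay in footprints of both libraries in a weaker region of intron 3, 140 kb downstream, with a signal of 0.710 and 0.735. This was 1 of the 9 NR5A words in the shared regions of the windows (11.1%), and 13.4% of those in all shared regions did so. A region 425 kb downstream with 1.47 in replicate 1 also held a CTCF core word in a footprint of that library and had no peak in replicate 2.

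GATA words (AGATAA or AGATAG or TGATAA or TGATAG, on both strands) were searched because GATA factors are known to act on their own genes. They occurred in 24 of the 53 shared regions (45.3%), against 26.3% of all shared regions. Away from protein-coding starts the shares were 51.4% of 37 regions and 32.0% of all such regions. By gene, 12 of 21 regions of Zfpm2, 3 of 4 of Gata6, 5 of 14 of Gata4 and 4 of 14 of Zfpm1 held a word. Along Zfpm2, all 7 shared regions from 19.9 to 109 kb downstream of the start held at least 1. Of the 6 shared regions between 120 and 280 kb, 4 did, and none of the 5 from 291 kb onward did. These stretches were chosen after the values were seen. Zfpm2 regions away from the start had a median GC content of 46.1%, against 52.3% for all regions away from starts, and the part of base composition in the GATA share was not tested. With the regions of replicate 1 alone, the share was 27.0% against 22.4% of its peaks genome-wide, and with those of replicate 2 alone 39.7% against 21.5%.

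None of the 46 GATA words in the shared regions lay in a footprint of replicate 1, and 5 lay in a footprint of replicate 2, 1 in Zfpm1 and 4 in introns 3 and 4 of Zfpm2. No shared region of the 53 had a GATA word in footprints of both libraries, which was rare everywhere, at 0.647% of all shared regions. Over the genome, 1.92% of GATA words in shared regions lay in footprints of both libraries, against 28.8% of GC boxes and 33.9% of CTCF core words, the highest sets. The other sets were lower: FOX had 1.55%, AP-1 3.68%, TEAD 4.03%, RUNX 5.81%, E-box 6.58% and NR5A 13.4%. The footprint lists therefore seldom covered GATA words anywhere.

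**Figure D3:**
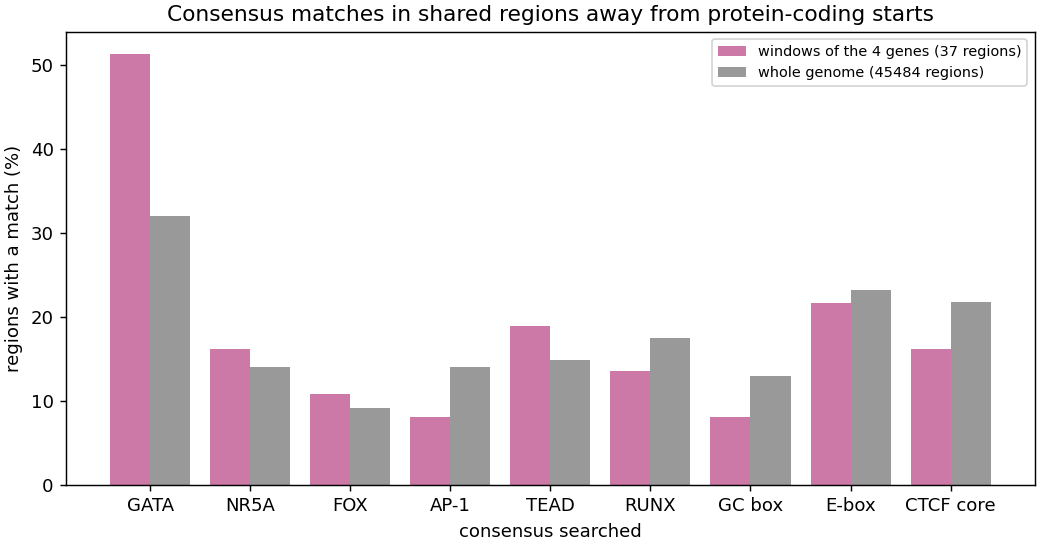
Share of shared regions away from protein-coding starts that hold each of 9 consensus words, in percent, for the windows of the 4 genes and for the genome. The GATA bar of the windows stands at 51.4% against 32.0%, and the E-box and NR5A bars are close to the genome's.

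Footprints were found in most regions of the windows. Of the 53 shared regions, 40 had footprints in both libraries, and 77.4% of all shared regions did. In shared regions, 57.4% of the 148 footprints of replicate 1 overlapped one of replicate 2, and 57.9% of the 145 of replicate 2 the other way, against 58.0% and 51.1% over the genome. Between windows, which can include starts of neighbours, the mean share ran from 41.3% at Gata6 and 46.8% at Zfpm2 to 60.5% at Gata4 and 74.9% at Zfpm1.

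The signals of the libraries ranked the 53 regions alike, with a Spearman correlation of 0.859 beside 0.859 over all 64875 shared regions, both given as a description. Of the 53, 46 lay within 2-fold of the median ratio of the libraries, against 91.4% of all shared regions, which leaves 6 below and 1 above. Below it were the intron 5 regions of Zfpm1 and Zfpm2, a region next to the latter with 0.614 and 0.274, the regions 49.3 kb downstream and 94.7 kb downstream of the Gata4 start, and one 22.6 kb upstream of Zfpm1 with 1.65 and 0.688.

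Some of the regions that were lower in replicate 2 held CTCF words, and this held over the genome. A longer CTCF word was searched for this: GCC followed, after 2 free bases, by CT and, after 2 more, by TGG, chosen after the values were seen. In the windows, 3 shared regions held it in footprints of both libraries, those 22.6 and 8.8 kb upstream of Zfpm1 and in intron 5 of Zfpm2. Their log2 ratios of replicate 2 over replicate 1 were -1.26, -0.40 and -1.52. Over all 3323 such regions away from starts the median log2 ratio was -0.94, and over the 42161 other regions away from starts it was -0.04. More than 2-fold below the median ratio were 41.2% of the first and 7.71% of the second. All 3 window regions were lower in replicate 2, as were 3221 of the 3323. Of the 6 window regions more than 2-fold below the median ratio, those 22.6 kb upstream of Zfpm1 and in intron 5 of Zfpm2 held a CTCF word. The others held neither the core nor the longer word, including the intron 5 region of Zfpm1, whose ratio of -1.60 was the most negative. The source of these differences between the libraries was not tested.

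**Figure D4:**
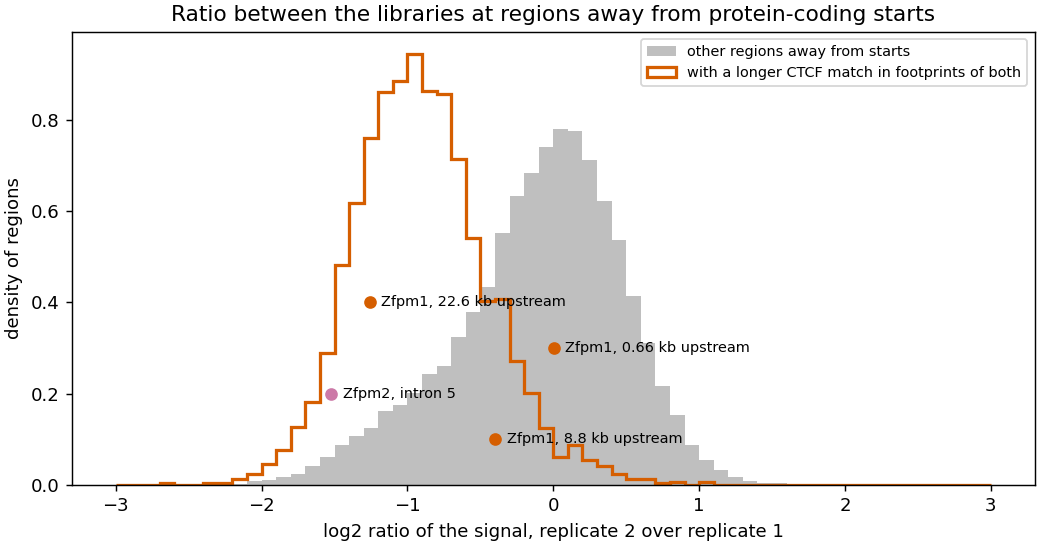
Log2 ratio of the signal in replicate 2 over replicate 1 for shared regions away from protein-coding starts, as densities, for the 3323 regions with the longer CTCF word in footprints of both libraries (orange line) and the 42161 others (grey); points are named regions, and their height has no meaning. The CTCF regions centre on -0.94, and the region 0.66 kb upstream of Zfpm1, without that word, lies near 0.

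**Figure D5:**
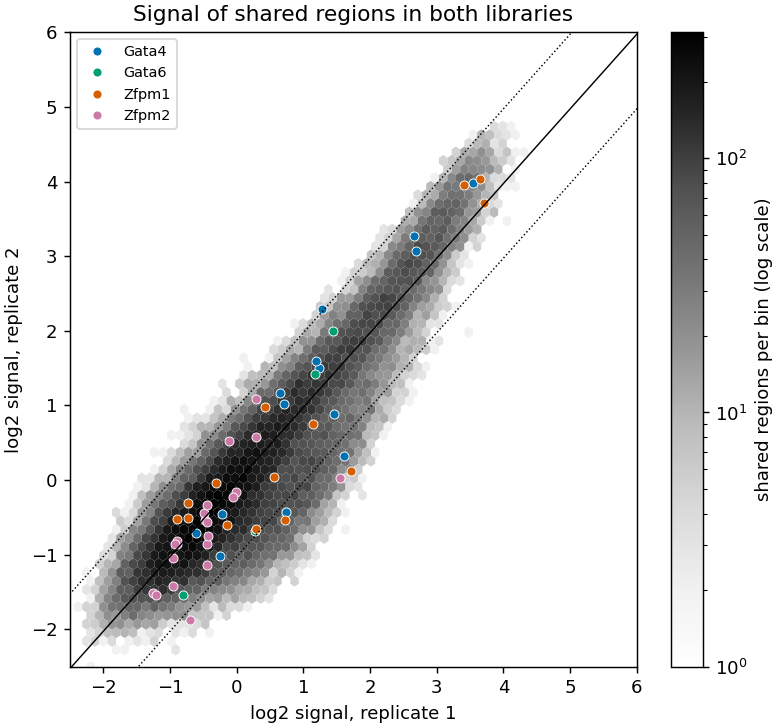
Log2 signal in replicate 2 against replicate 1 for all 64875 shared regions (grey bins, log count) and for the 53 regions of the windows (coloured by gene). The solid line is the median ratio and the dotted lines are 2-fold either side; 46 of the 53 lie between them.

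Among the other GATA family genes, 3 of 5 were open. Gata2 (2.52 ± 0.377, SD, n = 2), Trps1 (1.92 ± 0.278, SD, n = 2) and Gata5 had a promoter peak in both libraries, and Gata1 and Gata3 had none in either, against the background of 62.3%. GATA2 acts in blood stem cells, mast cells and endothelium, and TRPS1 is a GATA-type repressor of cartilage and hair. With promoters of 2000 bp either side, all 5 were open in both libraries, but the share of all genes at that width was not computed. All 3 levels were below the 7.41 of Gata4.

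Of 15 genes for the NuRD and CtBP complexes that FOG proteins recruit, 14 were open in both libraries (62.3% of all genes were), with a median of 6.77 against 4.03 for all open genes. Gatad2a, a NuRD scaffold subunit, had 17.4 and 27.5, a mean of 22.4 ± 7.19 (SD, n = 2). Mbd3, a NuRD subunit, had 12.7 and 24.4, a mean of 18.5 ± 8.28 (SD, n = 2). Mta1 had a peak of 0.538 in replicate 1 only.

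Of 16 partner factors of GATA4 in the gonad, 15 were open in both (62.3% of all genes were), with a median of 3.72, below the 4.03 of all open genes. Sp1, which binds GC boxes, had 9.88 and 20.4, a mean of 15.1 ± 7.42 (SD, n = 2), and Cited2, a coactivator, had 9.91 and 6.64, a mean of 8.28 ± 2.32 (SD, n = 2). Nr2f2 had a peak in replicate 2 only.

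Of 19 gonadal genes known as GATA targets that were on the chromosomes analysed, 16 were open in both, with a median of 2.18. Star, which moves cholesterol into mitochondria, had 4.50 and 7.15, a mean of 5.83 ± 1.88 (SD, n = 2). Inha, the alpha subunit of inhibin, had 4.19 and 5.86, a mean of 5.02 ± 1.18 (SD, n = 2). Hsd3b1, Fshr and Dkk1 were not open in both libraries. The share open in both was 84.2%, against 62.3% of all genes, and the median was below the 4.03 of all open genes.

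Of 15 genes of the BMP, TGF-beta and WNT pathways upstream of Gata4, 14 were open in both, against 62.3% of all genes, with a median of 3.44, also below 4.03. Tgfbr1, a TGF-beta receptor, had 13.6 ± 3.98 (SD, n = 2), and Smad3, which carries its signal, had 10.7 ± 4.48 (SD, n = 2). Of 9 partners of GATA4 in the heart, 5 were open in both, a share of 55.6% that is close to that of all genes. The 2 strongest, Jarid2 (15.1 ± 3.52, SD, n = 2) and Srf (10.7 ± 2.94, SD, n = 2), are also widely expressed, and Nkx2-5, Tbx5, Hand1 and Hand2 had no promoter peak in either library. These lists were chosen with earlier results of these data known, so their shares are descriptions.

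Markers were read for the cells that could carry these genes. Of 7 granulosa cell markers, 6 were open in both libraries, as were 4 of 5 theca and steroidogenic markers and 3 of 4 stroma markers. Of all genes 62.3% were, and no difference from that share was tested for these short lists. Their promoter signals ranged up to the 5.83 of Star and 5.02 of Inha. Of 7 erythroid and megakaryocyte markers, 2 were open in both, Itga2b with 11.7 ± 2.45 (SD, n = 2) and Epor with 0.923 ± 0.0107 (SD, n = 2), and Gata1, Klf1, Hba-a1, Gp9 and Pf4 had no promoter peak within 500 bp; Gata1 had one in both libraries within 2000 bp. No marker of heart muscle was open (0 of 4), 4 of 5 mast cell and blood stem cell markers were, and 1 of 3 T cell markers, 1 of 3 endothelial markers and 2 of 3 mesothelium markers were. The part of any cell type in the signal of the 4 genes was not tested.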

How the data were processed

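The 4 genes and the lists of related genes were chosen with earlier results of these data known. Per the file headers and notes, the authors deposited for each of the 2 libraries 2 lists of narrow peaks, footprints and false discovery rates of the cut rate, on mm10 and without pooling. Not given in the sources used here are the aligner, the callers and how CAST alleles were mapped. The deposited peak signal was scaled for depth by the authors: each value was a whole number of steps (100% to within 0.05 of 1 step), the step being 0.0108 in replicate 1 and 0.00782 in replicate 2. The total reads are unknown, so no interval is given. Deposited footprints carry a constant p-value label of 0.01, whose kind is not stated, and false discovery rates are listed only below 0.05.

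The longer lists (95898 and 83982 peaks, on all chromosomes) were the main lists, and the shorter ones (60823 and 50503) an alternative. Peaks on chromosomes 1 to 19 and X were merged across libraries where they shared at least 1 bp. The promoter signal of a gene came from the strongest peak within 500 bp of any annotated start. Consensus words were searched on both strands without mismatch in assembly GRCm38.p6, and a word counted as footprinted where its centre lay in a footprint. The sets beside GATA, GC box, NR5A (also CAAGGTCA) and the CTCF core (AGGGGGC or AGGTGGC or AGATGGC) were FOX (TGTTTAC or TGTTTGC), AP-1 (TGANTCA), TEAD (GGAATG), RUNX (TGTGGT) and E-box (CAGCTG). Words of different sets may overlap, and each was counted. The RefSeq promoter table held 1 of the 3 genes whose sequence is printed, so sequences were read from the genome.

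Named by rule were the 4 genes, neighbours with a promoter peak, the 3 strongest shared regions outside promoters in each window, and the 2 strongest genes of each list; other regions and genes were named after their values were seen. One region of the Gata4 window, which this rule ranks above those described, is not reported here. Computations used Python 3.11.15, NumPy 2.4.6, pysam 0.24.0 and Matplotlib 3.10.9. The counting functions were tested on simulated data.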

Additional observations from a re-analysis of the deposited data

How the results depend on the processing

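No paired analysis was possible because there is 1 group and no comparison between groups. All 4 genes also had a promoter peak in both of the shorter lists, the alternative that could have changed this count. In those lists 58.0% of all protein-coding genes did. With the shorter lists and with promoters of 2000 bp, no promoter signal of the 4 moved by more than 1 SD; with 2 libraries, leaving out either cannot move a mean that far. Of 62 other alternative values, 47 stayed near the main value, within 1.5 times for counts or 1 SD for shares. Some of the 47 were bound to stay. Wider promoters or a single library can only add open genes, so the count of all 4 genes could not change. Under these settings the lists with 14 of 15, 15 of 16 and 16 of 19 genes open could not rise 1.5 times. The 47 are thus no measure of robustness. With the shorter peak lists, shared regions numbered 2 for Gata6, 8 for Zfpm1 and 11 for Zfpm2. GATA words were then in 32.3% of the windows' regions against 22.8% of all, and 64.3% of footprints overlapped. With flanks of 10 kb, Gata4 kept 8 shared regions and Zfpm1 kept 9, and 55.5% of footprints overlapped. With a reciprocal overlap of 50%, Gata6 had 2 shared regions, and with the same rule for footprints 42.3% overlapped. With GATAA as the word, 35.8% of the windows' regions held it against 22.4% of all. With promoters of 2000 bp, 5 of the 5 other GATA genes were open, with no share of all genes computed at that width. Without either replicate in turn, regions numbered 19 to 24 for Gata4 and 6 to 8 for Gata6, and GATA words were in 27.0% to 39.7%. Some shifts follow from the settings. Region counts cannot fall without a replicate, since no sharing was then required, and shorter flanks or the reciprocal rule cannot raise them. The cause of the other shifts was not tested. Total depth is unknown, so a region without a peak may be open below what each library could show.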
